A study of Homo sapiens with 10 samples.

Results

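The nuclear genes for the subunits of oxidative phosphorylation were chosen by their symbols, which begin with NDUFA, NDUFB, NDUFC, NDUFS or NDUFV (complex I), SDHA to SDHD (complex II), UQCR (complex III), COX4 to COX8 (complex IV) or ATP5 (complex V), without NDUFAF genes and without symbols that end as numbered pseudogenes do. This gave 96 of the 26256 genes counted in the comparison of G12V with MCF10A cells, of which 85 passed the filter on low counts, and 93 of the 55736 genes counted in the comparison of Nutlin-3a with DMSO, of which 81 passed. By name alone the rule also takes in the assembly factors SDHAF1 to SDHAF4, a few antisense and read-through transcripts and an unnumbered pseudogene. Without these, 79 and 78 subunit genes were tested. ATP5S and ATP5SL are kept by the rule, although their products are not structural subunits of the ATP synthase, and NDUFA4 is counted with complex I by its symbol, although it is now assigned to complex IV.

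MCF10A is an immortalized, non-transformed line of human mammary epithelial cells. G12V cells are MCF10A cells that received the HRas oncogene with the G12V substitution from viral particles and were selected with hygromycin. They carry the endogenous HRAS as well, and the study describes a growth arrest after the introduction and a later return to growth. Poly(A) RNA of untreated MCF10A and G12V cells was sequenced in 2 replicates each. Parental MCF10A cells given 10 µM Nutlin-3a, an inhibitor of the binding of MDM2 to p53, or DMSO as the vehicle for 4 h were sequenced in 3 replicates each. All 10 libraries are from 1 cell line. The protocol calls the replicates biological but does not say whether they were separate cultures, so p-values measure the spread between these libraries, which may be technical.

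Oxidative phosphorylation turns the energy of nutrients into ATP at the inner membrane of mitochondria. Complexes I and II pass electrons from NADH and succinate to ubiquinone, complex III hands them on to cytochrome c, and complex IV to oxygen. Complexes I, III and IV pump protons, and complex V, the ATP synthase, lets them flow back through a rotating ring of c subunits to make ATP. A few core subunits of complexes I, III, IV and V are encoded in the mitochondrial genome, while all others, and all of complex II, come from nuclear genes and are imported. p53 is known to act on respiration through genes such as SCO2.

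HRAS, which checks the labels, had 72.6 and 65.9 reads per 1000000 reads of the library (CPM) in MCF10A and 631 and 515 CPM in G12V cells. Library totals were 21538593 to 23683975 counts in the table of G12V and MCF10A cells and 15453226 to 17378734 in that of the Nutlin-3a experiment. Of 8 epithelial markers, all were above 1 CPM in MCF10A cells and 4 in G12V cells, where CDH1, KRT14, KRT17 and CLDN4 were under 1 CPM. Their summed level was 6742 to 8208 CPM in MCF10A and 1363 to 1662 CPM in G12V libraries. Of 5 fibroblast markers, 2 were above 1 CPM in MCF10A and 3 in G12V cells, with sums of 37.4 to 64.7 and 53.4 to 59.9 CPM, and of 3 leukocyte markers PTPRC and CD3E were under 1 CPM in both. The third, CD68, which other cells also express, carried the sum of that list, 12.2 to 12.4 CPM in MCF10A and 37.3 to 72.7 CPM in G12V libraries. The part of these differences in the values of the members was not tested.

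Of the 85 tested members, 2 passed an adjusted p under 0.05 with an absolute log2 fold change above 0.5 between G12V and MCF10A cells, which is 2.35%, against 11.0% of all 14376 genes tested. Both encode parts of the ATP synthase. ATP5G1, a gene for subunit c of the proton-driven ring, was higher and ATP5I, a gene for subunit e at the membrane base where ATP synthase dimers form, was lower in G12V cells. None of the 81 members tested passed the same thresholds between Nutlin-3a and DMSO, where 0.170% of all 13529 genes did. Library sizes behind all CPM values were scaled by TMM. A log2 ratio is the fitted log2 fold change with its standard error (SE), and p-values are from the quasi-likelihood test of edgeR, with Benjamini-Hochberg adjustment over all genes of the table.

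Subunit c is encoded by 3 genes, ATP5G1, ATP5G2 and ATP5G3, named ATP5MC1, ATP5MC2 and ATP5MC3 at present, whose mature proteins are identical, so that the genes differ in their targeting peptides, in their regulation and in silent positions. The coding ends are shown because reads of these genes are told apart by the silent differences alone over this stretch. The sequences are the last 225 coding bases before the stop codon, 5′ to 3′ on the coding strand, from GENCODE transcripts on GRCh37. Capitals mark the 52 positions at which the 3 genes do not all have the same base.
ATP5G1: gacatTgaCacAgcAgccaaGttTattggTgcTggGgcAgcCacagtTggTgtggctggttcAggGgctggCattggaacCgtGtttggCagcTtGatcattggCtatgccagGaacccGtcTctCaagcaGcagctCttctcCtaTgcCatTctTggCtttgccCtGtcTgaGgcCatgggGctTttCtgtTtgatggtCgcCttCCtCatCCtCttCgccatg
ATP5G2: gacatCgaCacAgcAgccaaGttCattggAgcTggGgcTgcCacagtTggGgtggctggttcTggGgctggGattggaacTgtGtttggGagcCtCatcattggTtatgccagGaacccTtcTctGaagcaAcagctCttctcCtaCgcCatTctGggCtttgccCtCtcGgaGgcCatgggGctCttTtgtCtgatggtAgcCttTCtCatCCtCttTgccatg
ATP5G3: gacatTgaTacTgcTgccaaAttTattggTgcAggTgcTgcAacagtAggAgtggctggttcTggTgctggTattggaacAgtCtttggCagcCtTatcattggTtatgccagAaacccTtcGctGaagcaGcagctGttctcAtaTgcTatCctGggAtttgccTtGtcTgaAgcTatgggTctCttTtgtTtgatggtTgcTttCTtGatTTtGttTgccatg
The coding regions lie at chr17:46970780-46973128 (plus strand), chr12:54059101-54066398 (minus strand) and chr2:176043019-176046121 (minus strand), introns included. Over these 75 codons ATP5G1 differed from ATP5G2 at 25 bases (88.9% identity) and from ATP5G3 at 42 (81.3%), and ATP5G2 from ATP5G3 at 42 (81.3%), with 0 differing residues in each pair. The longest run of identical bases was 17 between ATP5G1 and ATP5G2 and between ATP5G2 and ATP5G3, and 11 between ATP5G1 and ATP5G3. The precursor proteins have 136, 141 and 142 residues.

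ATP5G1, on chromosome 17 from 46970148 to 46973232, had 73.1 and 63.3 CPM in the MCF10A libraries and 171.3 and 169.0 CPM in the G12V libraries. The groups were far apart and the G12V libraries close to each other. The means were 68.2 ± 6.89 and 170.2 ± 1.59 CPM (SD, n = 2 each), a log2 ratio of 1.32 (SE 0.18, adjusted p 0.00917 by edgeR), or 2.49-fold. Without MCF10A replicate 1 its adjusted p by edgeR was 0.1075. ATP5G2 had 95.9 and 140.4 CPM in MCF10A and 160.0 and 218.2 CPM in G12V cells. Its groups did not overlap, but libraries within each group differed widely, and the log2 ratio of 0.68 (SE 0.27) did not pass the test (adjusted p 0.179 by edgeR). ATP5G3, the most abundant of the genes for subunit c, had 264.6 and 245.0 CPM in MCF10A and 269.1 and 260.7 CPM in G12V cells, which overlap.

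By share, the libraries of the 2 groups did not overlap for ATP5G1 or ATP5G3. ATP5G1 made up 16.9% and 14.1% of the summed CPM of the 3 genes in the MCF10A libraries and 28.5% and 26.1% in the G12V libraries. The share of ATP5G3 was 61.0% and 54.6% in the MCF10A libraries and 44.8% and 40.2% in the G12V libraries. The sum of the 3 genes was 434 and 449 CPM in MCF10A and 600.4 and 648 CPM in G12V cells. In the Nutlin-3a experiment the share of ATP5G1 was 15.3% to 17.3% in the DMSO libraries and 15.1% to 16.7% in the Nutlin-3a libraries, so the groups overlapped. Its log2 fold change there was 0.05 (SE 0.10). The genes have pseudogene copies elsewhere in the genome, and how reads that fit several copies were counted is not given in the sources used here.

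**Figure D1:**
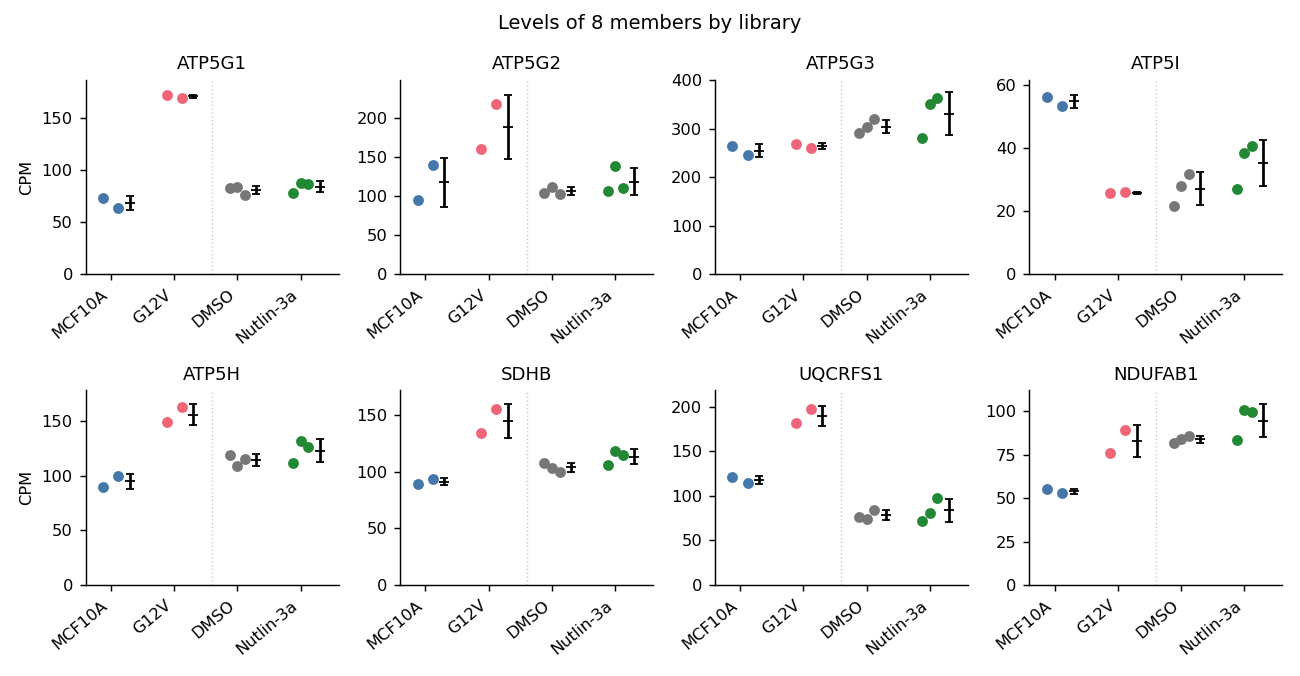
CPM (vertical axes from 0) of 8 members in each library. Points are libraries, and the bar beside them is the mean ± SD of the group (n = 2 for MCF10A and G12V, n = 3 for DMSO and Nutlin-3a). The dotted line separates the count tables, which were normalized separately. ATP5G1 stood at 63.3 to 73.1 CPM in MCF10A and 169.0 to 171.3 CPM in G12V libraries, and ATP5I at 53.2 to 56.2 and 25.6 to 26.0 CPM.

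ATP5I, now named ATP5ME, on chromosome 4 from 666225 to 668127, had 56.2 and 53.2 CPM in the MCF10A libraries and 25.6 and 26.0 CPM in the G12V libraries. The libraries of each group lay close together and the groups did not overlap. The means were 54.7 ± 2.1 and 25.8 ± 0.276 CPM (SD, n = 2 each), a log2 ratio of -1.09 (SE 0.19, adjusted p 0.0188 by edgeR), or 2.12-fold lower. Without MCF10A replicate 1 its adjusted p by edgeR was 0.1613. ATP5L, which encodes subunit g at the same membrane base, had 115.9 and 137.2 CPM in MCF10A and 109.6 and 133.6 CPM in G12V cells. Subunits e and g lie next to each other in the complex. The log2 ratio of ATP5L was -0.06, with overlapping groups, and its difference from that of ATP5I was not tested.

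ATP5I lies in a stretch of chromosome 4 in which most genes had lower values in G12V cells. Of the 63 other genes tested within 5 Mb of its start, 53 had a log2 fold change below 0, 22 were called lower and 3 higher, and their median was -0.90. ATP5H, for subunit d of the peripheral stalk, on chromosome 17 from 73034955 to 73043074, stood in a stretch of the opposite kind. It had 89.8 and 99.9 CPM in MCF10A and 149.1 and 162.8 CPM in G12V cells, a log2 ratio of 0.72 (SE 0.18, adjusted p 0.0554 by edgeR). Of its 109 neighbours 91 were above 0 and 23 were called higher, with a median of 0.65. ATP5G1, on the same chromosome, had 115 neighbours with a median of 0.12, of which 16 were called higher and 4 lower. Of all genes tested 5.01% were called higher and 5.95% lower, so these neighbours too were called higher more often than genes at large. ATP5H and ATP5I were the 2 members of the 85 whose neighbours had a median beyond 0.5 in either direction, while 78 had neighbours with a median within 0.2 of 0. The part of the neighbourhood in these values was not tested. Between Nutlin-3a and DMSO the medians of the neighbours lay between -0.08 and 0.06 for all 81 members. In that comparison ATP5I had a log2 ratio of 0.39 (SE 0.20, adjusted p 0.9997 by edgeR). With the libraries paired by number its adjusted p was 0.0537 by edgeR.

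**Figure D2:**
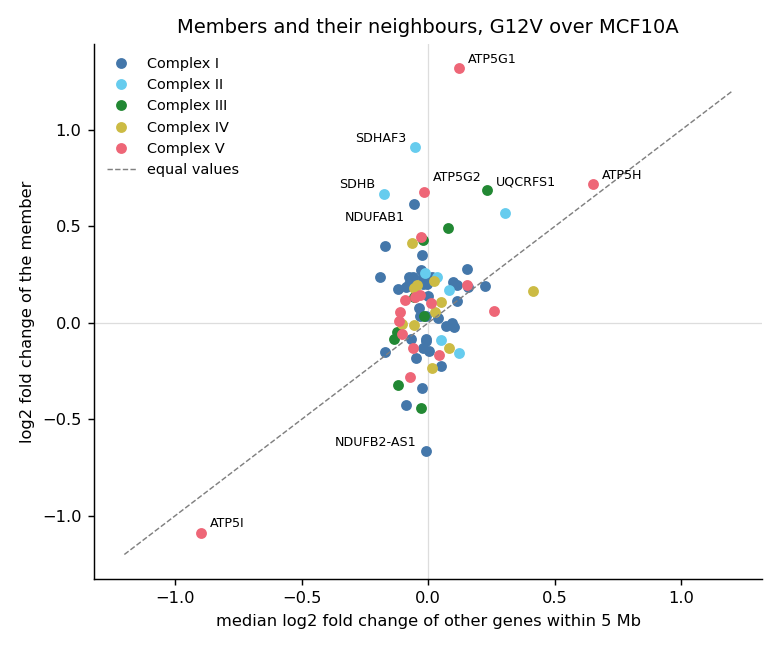
Log2 fold change of each tested member, G12V over MCF10A (vertical axis), against the median log2 fold change of the other genes tested within 5 Mb (horizontal axis), for members with at least 10 such neighbours. Colours are complexes and the dashed line marks equal values. ATP5I (-1.09 against -0.90) and ATP5H (0.72 against 0.65) lie near the line, and ATP5G1 (1.32 against 0.12) lies far above it.

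The promoters of the called members are shown with the search for 4 short motifs of factors known to act on nuclear genes of respiration. The sequences are the 250 bases upstream of the start, from RefSeq on GRCh38.p14, 5′ to 3′ on the strand of the gene, and capitals mark a motif.
ATP5G1: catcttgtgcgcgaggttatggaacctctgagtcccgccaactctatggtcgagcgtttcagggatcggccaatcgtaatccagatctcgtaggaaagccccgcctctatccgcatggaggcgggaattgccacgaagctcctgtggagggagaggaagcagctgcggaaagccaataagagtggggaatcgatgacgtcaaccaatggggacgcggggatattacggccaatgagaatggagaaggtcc
ATP5I: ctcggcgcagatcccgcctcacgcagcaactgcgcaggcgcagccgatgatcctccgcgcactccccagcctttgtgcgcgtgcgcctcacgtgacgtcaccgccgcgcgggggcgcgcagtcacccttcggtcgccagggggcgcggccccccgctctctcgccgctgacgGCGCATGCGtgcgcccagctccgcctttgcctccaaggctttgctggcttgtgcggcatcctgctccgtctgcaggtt
They lie at chr17:48892537-48892786 (plus strand) and chr4:674277-674526 (minus strand) of that build. The motifs were searched on both strands, with GCGCATGCG for NRF1, CCGGAAG for ETS factors such as GABP, AAGATGGC for YY1 and AAGGTCA for ERRA. The last 3 bases of the ETS motif are the first 3 of the YY1 and ERRA motifs, so matches of these can overlap. The upstream sequence of ATP5I holds the NRF1 motif 1 time, and that of ATP5G1 holds none of the 4 in these letters. An ETS motif of ATP5I lies at or after its start. Promoters of 250 bases before and 50 bases after the start were given for 69 subunit genes of the rule and for 15843 protein-coding genes in all. A gene was counted where any of its given promoters held the motif. The NRF1 motif stood in 11 of the 69 genes (15.9%), against 3.11% of all 15843, and the ETS motif in 20 (29.0%), against 16.5%. The YY1 motif stood in 12 (17.4%), against 4.66%, and the ERRA motif in 10 (14.5%), against 4.26%. By complex, the NRF1 motif was found for 5 of 33 genes of complex I, 1 of 3 of complex II and 0 of 7 of complex III. It was found for 1 of 14 of complex IV and 4 of 12 of complex V.

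Across all members, changes between G12V and MCF10A cells were small. The median absolute log2 ratio was 0.19, against 0.36 over all genes tested, and 0.19 against 0.28 among the 76 members and 7903 genes with at least 20 CPM on average. An unadjusted p under 0.05 was found for 9 members (10.6%), against 25.6% of all genes. By direction, 1 member was called higher (1.18%), against 5.01% of all genes, and 1 lower (1.18%), against 5.95%. Log2 fold changes lay above 0 in 56 of the 85, with a median of 0.13 against -0.0011 over all genes. In 28 members (32.9%) both G12V libraries were above both MCF10A libraries, against 27.5% of all genes, and in 6 members (7.06%) both were below, against 27.4%.

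The second replicates stood higher than the first in both groups. Relative to the mean of the MCF10A libraries, the median over members was -0.09 and 0.09 on the log2 scale in MCF10A replicates 1 and 2, and 0.01 and 0.21 in G12V replicates 1 and 2, so the groups overlapped. The summed level of the 79 subunit genes among the members was 8443 and 9712 CPM in MCF10A and 9314 and 10933 CPM in G12V cells, which overlaps as well. Members took 0.868% to 1.06% of the counts of these libraries. Without G12V replicate 2, 45 of 85 members were above 0, and without MCF10A replicate 2, 73 of 86.

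**Figure D3:**
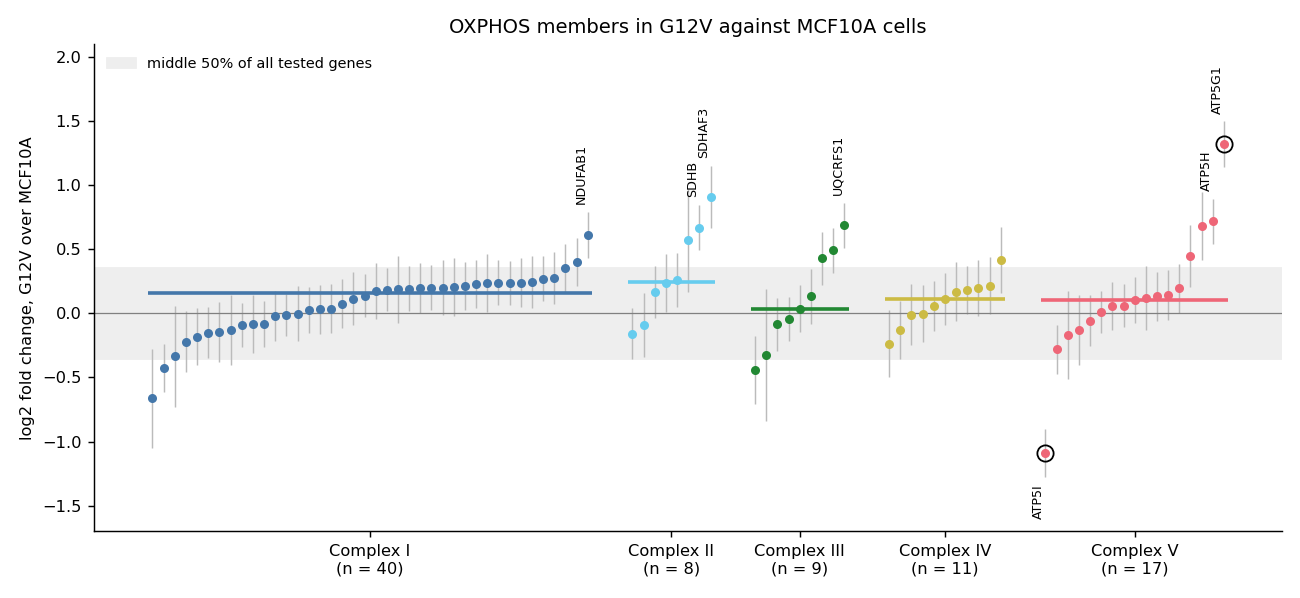
Log2 fold change of the 85 tested members, G12V over MCF10A, ordered within each complex. Bars are ± 1 SE of edgeR's quasi-likelihood fit with n = 2 libraries per group, horizontal lines are medians by complex, the grey band holds the middle 50% of all 14376 genes, and rings mark the called members, ATP5G1 at 1.32 and ATP5I at -1.09. Names are given to members with an adjusted p under 0.1.

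Complex I, the largest complex, had 40 tested members, with 0 called and a median log2 ratio of 0.16. NDUFAB1, the mitochondrial acyl carrier protein that is part of complex I, had 55.0 and 53 CPM in MCF10A and 76.2 and 89.1 CPM in G12V cells. Its log2 ratio of 0.61 (SE 0.18) missed the threshold (adjusted p 0.0870 by edgeR). NDUFA11, a membrane subunit, was lowest among the protein-coding members of the complex, with 69.0 and 84.6 CPM in MCF10A and 57.9 and 56.6 CPM in G12V cells, a log2 ratio of -0.42 (SE 0.19, adjusted p 0.225 by edgeR). The member of complex I with the largest absolute change was the antisense transcript NDUFB2-AS1, at -0.66 (SE 0.38), which had under 2 CPM in every library. It overlaps NDUFB2 in part, and over that part its reads cannot be told from those of NDUFB2 if strand was not used.

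Complex II had 4 subunit genes and 4 assembly factors tested, with 0 called and a median of 0.25. SDHB, the iron-sulphur subunit that carries electrons from succinate, had 88.7 and 93.3 CPM in MCF10A and 134.0 and 155 CPM in G12V cells. The groups were well apart, with a log2 ratio of 0.67 (SE 0.18, adjusted p 0.0690 by edgeR). Its partners in the enzyme had 0.17 (SE 0.20) for SDHA, the flavin subunit, 0.24 (SE 0.23) for SDHD and -0.16 (SE 0.20) for SDHC, the membrane anchors. SDHAF3, known to help in the maturation of SDHB, had 9.36 and 10.2 CPM in MCF10A and 16.8 and 19.8 CPM in G12V cells, a log2 ratio of 0.91 (SE 0.24, adjusted p 0.0701 by edgeR). The differences between these genes were not tested.

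Complex III had 9 tested members, with 0 called and a median of 0.04. UQCRFS1, the Rieske iron-sulphur protein, had 121.4 and 114.5 CPM in MCF10A and 181.5 and 197.9 CPM in G12V cells, a log2 ratio of 0.69 (SE 0.18, adjusted p 0.0631 by edgeR). UQCRC1 and UQCRC2, the core proteins that form a pair in the complex, pointed in opposite directions. UQCRC1 had 325 and 464 CPM in MCF10A and 252 and 329 CPM in G12V cells, a log2 ratio of -0.44 (SE 0.26), and its groups overlapped. UQCRC2 had 179.0 and 197.0 CPM in MCF10A and 224 and 282 CPM in G12V cells, a log2 ratio of 0.43 (SE 0.21), and its groups did not overlap. Neither passed the test, at 0.371 and 0.268 for the adjusted p by edgeR.

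Complex IV, which passes electrons to oxygen, had no member whose groups were apart. Its 11 tested members had log2 fold changes between -0.24 and 0.42, a median of 0.11 and 0 called, and the groups overlapped in all 11. COX7B, a small subunit, was highest, with 45.8 and 60.0 CPM in MCF10A and 57.2 and 84.0 CPM in G12V cells. COX4I1, the most abundant by CPM, had 234 and 313 CPM against 242 and 301 CPM, a log2 ratio of -0.01 (SE 0.24). Over all genes tested, 27.5% had both G12V libraries above both MCF10A libraries, and 27.4% had both below. Members above and below in this way were 18 and 4 of 40 in complex I and 3 and 0 of 8 in complex II. They were 3 and 0 of 9 in complex III and 4 and 2 of 17 in complex V.

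Complex V held both called members, and its 17 tested members had a median of 0.11. ATP5A1 (alpha) and ATP5B (beta), which form the catalytic head, were the most abundant members by CPM. ATP5B had 916 and 952 CPM in MCF10A and 1157 and 1389 CPM in G12V cells, a log2 ratio of 0.45 (SE 0.24, adjusted p 0.326 by edgeR). ATP5A1 had 642 and 807 CPM against 708 and 867 CPM, which overlap. ATP5D (delta) was nearly level, with 112.5 and 113.5 CPM against 115.1 and 112.6 CPM. Per kilobase of transcript ATP5B was also the highest of the 84 members with a known length, at 531 CPM per kilobase in MCF10A cells. It was followed by COX6A1 at 367 and COX4I1 at 359, against a median of 99.1 over 78 subunit genes. These values rest on the length of 1 annotated transcript per gene, which may not be the form present in these cells. ATP5A1, with a length of 5761 bases, had 126 CPM per kilobase.

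Several subunits have forms known for muscle, lung, testis or low oxygen, and these were near 0 in all libraries. COX4I2, the form of COX4 known from lung and low oxygen, had 0 reads in each of the 10 libraries, while COX4I1 had 5146 to 7115 reads in the MCF10A and G12V libraries. COX7B2 also had 0 reads in all libraries, and COX6A2, the muscle form, had 1 read in 1 Nutlin-3a library and 0 elsewhere. COX7A1 had at most 3 reads and COX8C at most 2 in any library. COX6B2 had 8 to 10 reads in the MCF10A and G12V libraries, beside 2211 to 2969 reads of COX6B1, and 0 to 2 in the others. NDUFA4L2, known to be induced by low oxygen, had 1 and 6 reads in MCF10A, 2 and 12 in G12V, 28, 4 and 5 in DMSO and 23, 6 and 1 in Nutlin-3a libraries, beside at least 2021 reads of NDUFA4. These genes did not pass the filter, and a share of reads that small gives no difference between groups at this depth, of 15453226 to 23683975 reads counted per library.

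Known targets of p53 rose with Nutlin-3a. CDKN1A, the cell cycle inhibitor p21, had 624 to 673 CPM in the DMSO libraries and 2688 to 3349 CPM in the Nutlin-3a libraries, a log2 ratio of 2.16 (SE 0.13, adjusted p 5.16e-04 by edgeR). MDM2 had 102 to 122 CPM in the DMSO libraries and 509 to 814 CPM in the Nutlin-3a libraries, a log2 ratio of 2.54 (SE 0.18, adjusted p 0.00133 by edgeR). The members of oxidative phosphorylation showed far smaller differences, with log2 fold changes between -0.09 and 0.39 and 0 called. DESeq2 and the exact test of edgeR also gave 0. An unadjusted p under 0.05 was found for 3 members (3.70%), ATP5O, ATP5L and COX6C, against 3.42% of all genes. The libraries are paired by number. With the number as a block, 19 members (23.5%) had an unadjusted p under 0.05 by edgeR, against 11.7% of all genes. All 19 had a log2 fold change above 0, and 0 passed the adjusted threshold. ATP5I and COX5B came nearest, with adjusted p of 0.0537 and 0.0567 by edgeR with the block. The SE and other adjusted p of members given for this comparison are from the fit without the block.

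The signs of these small differences were uneven. The log2 ratio was above 0 in 76 of the 81 members (93.8%), against 51.8% of all genes, with a median of 0.13 against 0.0066. The medians by complex were 0.14 for complex I (39 members), 0.11 for complex II (6), 0.16 for complex III (8), 0.13 for complex IV (11) and 0.10 for complex V (17). The 3 pairs of libraries differed in this. Over the DMSO library of the same number, the median of the members was -0.03 for number 1, with 32 of 81 above 0, 0.19 for number 2, with 77 above 0, and 0.22 for number 3, with 78 above 0. Most members were thus above 0 in 2 of the 3 pairs, and without Nutlin-3a replicate 3 the number of members above 0 was 64 of 82. Other genes with transcripts of up to 1000 bases had medians of -0.05, 0.14 and 0.21 in pairs 1, 2 and 3. Of these other short genes 38.5%, 75.4% and 81.3% were above 0, and of all genes 46.4%, 50.1% and 49.9%.

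ATP5O, for the OSCP subunit that joins the stalk to the catalytic head, had 44.3, 44.1 and 48.6 CPM in the DMSO libraries and 50.3, 54.9 and 61.3 CPM in the Nutlin-3a libraries, and the groups did not overlap. Its log2 ratio was 0.28 (SE 0.11, adjusted p 0.9997 by edgeR). ATP5L had 102.9, 96.2 and 110.6 CPM against 111.0, 133.1 and 127.0 CPM, and COX6C had 156.2, 161.0 and 162.7 CPM against 165.1, 205.9 and 208.5 CPM. ATP5I had the largest log2 fold change, 0.39 (SE 0.20), with 21.5, 28 and 31.7 CPM in DMSO and 27.0, 38.4 and 40.6 CPM in Nutlin-3a libraries, which overlap. ATP5B, the most abundant, had 1042, 1081 and 1105 CPM against 1044, 1198 and 1171 CPM, a log2 ratio of 0.08 (SE 0.11). In complex I NDUFA13 had the largest value, 0.35 (SE 0.20), at 2.95 to 3.48 CPM in DMSO and 3.88 to 4.22 CPM in Nutlin-3a libraries, and NDUFS5, the most abundant, had 0.15 (SE 0.15). SDHA had 0.20 (SE 0.11) in complex II and UQCR11 0.26 (SE 0.15) in complex III. COX5B, which binds zinc in complex IV, had 0.32 (SE 0.16), with 99.4, 116 and 131 CPM against 117, 151 and 165 CPM. UQCRC1 and COX4I1, the most abundant of complexes III and IV, had 0.14 (SE 0.11) and 0.18 (SE 0.11).

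**Figure D4:**
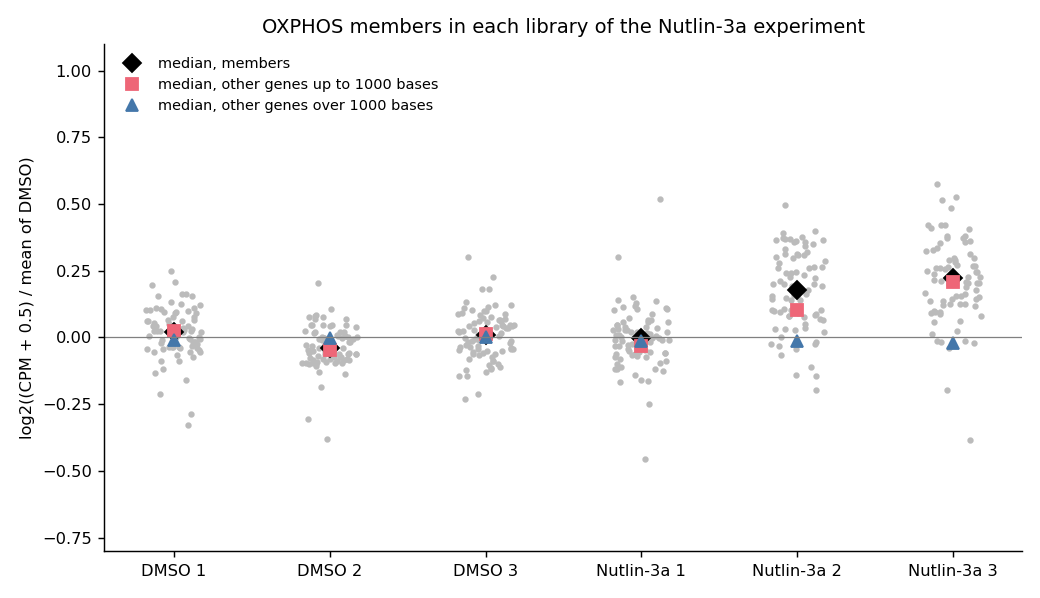
Log2 of the level (CPM + 0.5) over the mean of the DMSO libraries, for each of the 81 members (grey points) in the 6 libraries of the Nutlin-3a experiment, with the medians of members, of other genes with transcripts up to 1000 bases and of other genes with longer transcripts. In Nutlin-3a replicates 2 and 3 the members stood at 0.18 and 0.22 and the other short genes at 0.10 and 0.21, while in Nutlin-3a replicate 1 both were near 0.

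Most members have short transcripts, with a median length of 876 bases against 3297 over the genes of this table, as GENCODE's canonical transcripts give it. Lengths were known for 98.8% of the members and 92.7% of all genes tested. Other genes with transcripts of up to 2000 bases were also mostly above 0. In each class over 600 bases the median of other genes was lower than that of the members. The classes rest on 1 annotated transcript per gene, for instance 8459 bases for UQCRB and 11660 for NDUFS1. The forms present in these cells were not examined, so a gene may stand in too long a class. Among the 220 other genes of up to 600 bases the median log2 ratio was 0.16 and 80.0% were above 0, and the 20 members of that class had a median of 0.16. From 600 to 1000 bases the medians were 0.10 for other genes and 0.16 for members, with 73.7% of other genes and 24 of 24 members above 0. From 1000 to 2000 bases they were 0.03 and 0.11, with 60.0% and 17 of 17 above 0. From 2000 to 4000 bases they were -0.02 and 0.10, with 45.8% and 10 of 11 above 0, and above 4000 bases -0.0048 and 0.06, with 48.6% and 6 of 8. By library, other genes of up to 1000 bases had medians of -0.03, 0.10 and 0.21 in Nutlin-3a replicates 1, 2 and 3, and the members -0.0038, 0.18 and 0.22. The part of transcript length in the values of the members was not tested.

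Between G12V and MCF10A cells no such course with length was seen. The medians of other genes were -0.04 up to 600 bases, 0.02 from 600 to 1000, 0.02 from 1000 to 2000, -0.0056 from 2000 to 4000 and -0.02 above 4000 bases. Those of the members in the same order were 0.04, 0.19, 0.04, 0.06 and 0.21.

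**Figure D5:**
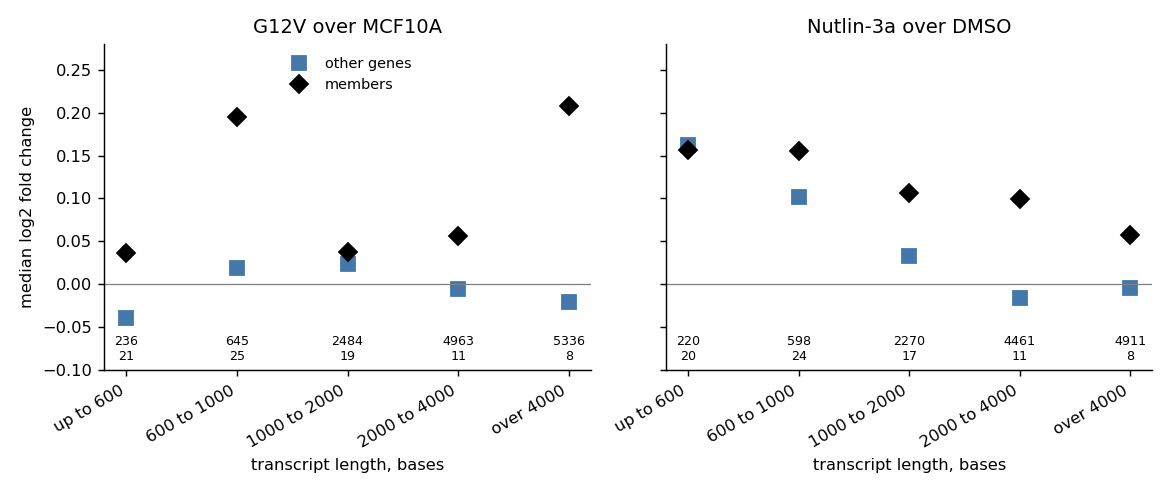
Median log2 fold change (vertical axis) by class of transcript length in bases (horizontal axis) for members (diamonds) and all other tested genes (squares), in both comparisons. The numbers under the points are the other genes and, beneath, the members in each class. For Nutlin-3a over DMSO the medians of other genes were 0.16 in the shortest class and -0.0048 in the longest.

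Parental MCF10A cells were counted in both tables, but from different libraries, untreated in 1 and given DMSO in the other. The annotations differed too, and a few members had very different levels. CDKN1A also differed, with 151 and 201 CPM in MCF10A and 624 to 673 CPM in the DMSO libraries. MDM2 had 245 and 307 CPM in MCF10A and 102 to 122 CPM in the DMSO libraries. The parts of experiment and annotation in these differences were not tested. The tables were normalized separately, so the values are set side by side without a test. NDUFV2, a core subunit of complex I, had 121 ± 6.99 CPM in MCF10A and 0.838 ± 0.201 CPM in the DMSO libraries (SD, n = 2 and 3). NDUFA13 had 89.9 ± 10.6 and 3.15 ± 0.289 CPM, and ATP5E had 16.4 ± 4.32 and 99.3 ± 7.07 CPM. Of the 81 members tested in both tables, 13 differed by more than 1 on the log2 scale. In all 13, and in 49 of the 81, another gene of at least 1 of the tables overlaps the member. SDHC, among the 13, was overlapped only in the table where it stood higher, at 131.7 CPM in MCF10A against 60.4 CPM in DMSO. The 32 members free of such overlaps in both tables differed by -0.32 to 0.71. ATP5I was among the 13, with 54.7 ± 2.1 and 27.1 ± 5.2 CPM, and MYL5 overlaps it on the opposite strand in the table of the Nutlin-3a experiment, whereas ATP5G1 had 68.2 ± 6.89 and 80.7 ± 3.87 CPM. Within each table, the 68 members without an overlapping gene had a median of 0.13 for G12V over MCF10A, with ATP5G1 and ATP5I called, and the 33 without one had a median of 0.12 for Nutlin-3a over DMSO.

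Other genes of oxidative phosphorylation lie outside the symbols of the rule, and 5 of these were tested. In G12V cells 4 of the 5 were above 0, with a median log2 ratio of 0.28, against 0.13 for the members. With Nutlin-3a their median was 0.14, against 0.13 for the members. CYC1, cytochrome c1 of complex III, had 304 and 318 CPM in MCF10A and 362 and 444 CPM in G12V cells, a log2 ratio of 0.38 (SE 0.21). CYCS, cytochrome c itself, had 292 and 141 CPM against 363 and 294 CPM and 0.60 (SE 0.36). USMG5 and C14orf2, small subunits of the ATP synthase, had 0.28 (SE 0.17) and 0.01 (SE 0.17), and ATPIF1, the inhibitor of the ATP synthase, -0.24 (SE 0.18). With Nutlin-3a the 5 genes had log2 fold changes of 0.05 for CYC1, 0.04 for CYCS, 0.14 for USMG5, 0.26 for C14orf2 and 0.17 for ATPIF1. None of them was called in either comparison. The 13 subunits encoded in mitochondrial DNA were not analysed here.

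In G12V cells 2 of 46 assembly factors (4.35%) were higher and 0 lower, beside 5.01% of all genes higher and 5.95% lower, with a median log2 ratio of 0.12. COX11, needed for the copper centre of complex IV, had 36.5 and 31.3 CPM in MCF10A and 76.9 and 77.6 CPM in G12V cells, a log2 ratio of 1.19 (SE 0.18, adjusted p 0.0135 by edgeR). COA6, which acts on another copper centre of complex IV, had 43.6 and 39.9 CPM against 72.3 and 96.4 CPM and 1.01 (SE 0.21, adjusted p 0.0332 by edgeR). Of 77 genes of the mitochondrial ribosome 3 (3.9%) were higher and 0 lower, MRPL33 (1.07), MRPS23 (0.90) and MRPS5 (0.79). COX11 and MRPS23 lie on chromosome 17, in stretches where 64 and 54 other genes had medians of 0.53 each. None of these 5 calls held without MCF10A replicate 1, where no gene was called, or without MCF10A replicate 2, where 1158 genes were called and the adjusted p by edgeR was 0.0548 for COX11 and 0.1047 to 0.2085 for the other 4. COA6, MRPL33 and MRPS5 also lost the call without G12V replicate 2 (0.09437, 0.05901 and 0.194), MRPS23 without G12V replicate 1 (0.06528), and MRPS5 with no filter (0.06971) or relative log expression factors (0.05047). Of the 16 genes of the TCA cycle, which feeds electrons to complexes I and II, 15 were above 0 and 0 were called. Their median was 0.25, against -0.0011 over all genes.

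Among 14 regulators of mitochondrial genes 0 were higher and 1 (7.14%) was lower in G12V cells. Of all genes 5.01% were higher and 5.95% lower, so the share called lower was near that of all genes. The median of the list was 0.03. PPARGC1A, the coactivator PGC-1α that is known to raise transcription of respiratory genes with NRF1 and ERRA, had 2.41 and 18.9 CPM in the MCF10A libraries and 1 read in each G12V library. The groups did not overlap, but the MCF10A libraries differed widely, and the adjusted p by edgeR was 0.0216, or 0.05402 when MCF10A replicate 1 was left out. NRF1 itself had 17.4 and 16.3 CPM against 17.5 and 12 CPM. TFAM, which packs and transcribes mitochondrial DNA, had 117 and 92.4 CPM against 122 and 88.4 CPM, and neither gene passed the test.

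Of 8 genes that tie p53 to respiration or are its known targets, 0 were called between G12V and MCF10A cells, with a median log2 ratio of -0.05. GLS2, a mitochondrial glutaminase, had 12 and 20.9 CPM in MCF10A and 3.08 and 6.87 CPM in G12V cells, a log2 ratio of -1.73 (SE 0.48), and FDXR, a mitochondrial reductase, had 26.0 and 29.3 CPM against 45.9 and 53.7 CPM and 0.85 (SE 0.20). CDKN1A had 151 and 201 CPM against 270 and 727 CPM and 1.5 (SE 0.47). Groups did not overlap in any of these, and the adjusted p by edgeR was 0.0769, 0.0524 and 0.106, while all 3 were called by DESeq2 (adjusted p 0.004175, 0.015 and 0.007144). Among the others, AIFM1 had 0.39 (SE 0.17), SCO2 -0.05 (SE 0.36), MDM2 -0.04 (SE 0.21) and TIGAR -0.18 (SE 0.17).

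With Nutlin-3a, 0 of 43 assembly factors, 0 of 75 genes of the mitochondrial ribosome, 0 of 16 genes of the TCA cycle and 0 of 12 regulators were called. All 12 regulators had a log2 fold change below 0, with a median of -0.16, while 51.8% of all genes were above 0. MYC was lowest, with 303, 321 and 364 CPM in the DMSO and 163, 174 and 277 CPM in the Nutlin-3a libraries, a log2 ratio of -0.69 (SE 0.20, adjusted p 0.724 by edgeR). Of the genes known to tie p53 to respiration, SCO2, an assembly factor for complex IV, had -0.07 (SE 0.31), and AIFM1, which serves the assembly of complex I, had -0.02 (SE 0.12). FDXR, which serves steroid and iron-sulphur pathways, had 26.3, 25.6 and 30.5 CPM in the DMSO and 41.6, 48.1 and 63.6 CPM in the Nutlin-3a libraries. The groups did not overlap, and its log2 ratio of 0.90 (SE 0.17) did not pass (adjusted p 0.186 by edgeR), but did with an adjusted p of 0.0003504 with the replicate number as a block. C12orf5, for TIGAR, which restrains glycolysis, had 0.87, with adjusted p of 0.502 and of 8.186e-05 with the block, and GLS2 0.69, with 0.9997 and 0.009211, all by edgeR.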

How the data were processed

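Poly(A) RNA-seq libraries of MCF10A and G12V cells (n = 2 each) and of MCF10A cells with DMSO or Nutlin-3a (n = 3 each) were analysed. The authors aligned reads to hg19 with TopHat, used HTSeq to count them per gene, and deposited the raw counts without normalization, in 2 tables on different annotations. The annotations, the strand setting and the treatment of overlapping genes are not given in the sources used here.

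Each table was fitted on its own with edgeR 4.0.16 in R 4.3.3 (filterByExpr, TMM, quasi-likelihood F-test, prior count 0.125, Benjamini-Hochberg over all genes). A gene was called at an adjusted p under 0.05 together with a log2 fold change above 0.5 in size. The SE is the size of the log2 fold change divided by the root of F. DESeq2 1.42.0, the exact test of edgeR, other scalings and filters, the replicate block and the omission of each library served as alternatives. The fits were tested on simulated data.

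In the Nutlin-3a experiment, same-numbered libraries deviated together from their group means (correlations 0.624, 0.603 and 0.639), and others did not (-0.474 to -0.191), so the numbers were taken to pair the libraries.

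Named genes are the called members and, in each complex, the member with the largest change and the one with the highest CPM. Tissue forms, genes for subunit c, oxidative phosphorylation genes outside the rule, genes tying p53 to respiration and called genes of other lists are named. Some genes that the rule would also name are not reported here. Other genes given with values were named after these were seen. Members, lists and tests were chosen with earlier results of these data known.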

Additional observations from a re-analysis of the deposited data

How the results depend on the processing

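ATP5G1 was called higher and ATP5I lower by the quasi-likelihood test, DESeq2 and the exact test, and under every scaling and filter tried. Without MCF10A replicate 1 neither was, as 0 of 14883 genes were called by edgeR's quasi-likelihood test (2830 had an unadjusted p under 0.05), so members called higher and members called lower each ranged from 0 to 1 over the omissions. The number called higher was 5 with DESeq2 and with the exact test (ATP5H, SDHAF3, SDHB and UQCRFS1 in addition). That is 5.88% of members, against 7.73% and 8.56% of all genes. It was 2 (2.35%, against 5.59%) with library totals alone. When genes needed over 1 CPM in 2 libraries it was 3 (3.57%, against 5.8%). Genes called numbered 1575 in all, 2307 with DESeq2 and 2536 with the exact test. With Nutlin-3a they were 23, 88 and 84, and 99 without the filter.

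With the replicate number as a block, 7 members were called higher in G12V cells and 4158 genes in all. Whether these 2 pairs share more than a number is not given in the labels, and with 2 libraries per group their correlation (0.494) cannot tell. In the Nutlin-3a experiment the paired fit called 165 genes and 0 members.

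Over the omissions, the median of complex V relative to all genes (0.11) ranged from 0.011 to 0.23 and that of complex II (0.25) from 0.021 to 0.40. Medians over members without an overlapping gene, an alternative chosen after seeing the data, are in the report. Genes near 0 changed sign. With library totals alone COX4I1 had 0.018, and with the CPM filter 0.014. Over the omissions in G12V cells COX4I1 ranged from -0.19 to 0.21, SCO2 from -0.30 to 0.16, MDM2 from -0.17 to 0.13, C14orf2 from -0.019 to 0.064 and ATP5G3 from -0.00069 to 0.14. With Nutlin-3a SCO2 ranged from -0.51 to 0.16, AIFM1 from -0.12 to 0.048 and CYCS from -0.013 to 0.12. Genes of a few reads cannot be compared at this depth.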
